A study of Mus musculus with 8 samples.

Results

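The Src family kinase genes Lyn, Lck, Fyn, Fgr, Yes1, Src and Blk were examined in an ATAC-seq comparison of regulatory T (Treg) cells labelled WT and Flcn KO. ATAC-seq uses a transposase to insert adapters into open DNA, so that the count over a peak reflects how accessible that stretch of chromatin is. A peak belonged to a member gene when that gene was the nearest RefSeq protein-coding gene span within 50 kb. This gave 57 of the 57199 deposited peaks: 36 for Fyn, 5 each for Lck and Src, 4 for Blk, 3 each for Lyn and Fgr, and 1 for Yes1. Of these, 47 touched the span of their gene and 10 lay outside it. The family was selected on an earlier result of the same comparison, a large loss of counts at a peak near Lyn. All values for Flcn KO against WT below are therefore a description of these libraries, given without p-values.

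Both groups were splenic CD4+ Treg cells from mixed bone-marrow chimeric mice, with 4 libraries per group that the labels call biological replicates. In both, cells with the CD45.2 but without the CD45.1 marker and with a Foxp3-YFP reporter were sorted. The WT group came from WT chimeras, and the Flcn KO group from chimeras with Foxp3Cre Flcn fl/fl donor cells, in which Cre driven by Foxp3 removes floxed Flcn in Foxp3-expressing cells. The labels give neither the age nor the sex of the mice, nor the exons that are removed, nor whether WT donors carried the same Cre. Folliculin, the product of Flcn, works at the lysosome in nutrient signalling to mTORC1.

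The libraries held 2723344 to 5111728 counts over all peaks, of which 1580 to 3379 per library fell in the 57 member peaks. Values are CPM, counts divided by the TMM-normalised total of the library and set on a common scale, as edgeR's cpm function gives them, and n = 4 in each group. A peak is called when its adjusted p is below 0.05 in edgeR's quasi-likelihood test with Benjamini-Hochberg adjustment over all 47859 tested peaks. Marker genes were measured beside the label as Treg cells, and all 8 Treg and T cell markers had assigned peaks. So had all 4 NK cell and 2 CD8 T cell markers, so having peaks does not tell these cell types apart. The Treg and T cell markers summed to 1570 to 1710 CPM in the WT and 1625 to 1937 CPM in the Flcn KO libraries. Most of this sum lay at Ikzf2, Ctla4 and Cd28, with WT means of 469, 435 and 334 CPM, beside 38.5 CPM at Foxp3. The 8 Treg and T cell markers had 87 tested peaks. Of these, 3 were called higher in Flcn KO, at Ikzf2 (log2 fold changes 1.10 and 0.63) and Il2ra (0.99), and 1 lower, at Ctla4 (−1.24). Each of these 4 calls ended when WT replicate 2 was left out, and also without at least 1 other single library. The 2 tested Flcn peaks were not called, with log2 fold changes of −0.28 (SE 0.22) and −0.57 (SE 0.31). A further pair of Flcn peaks, too low to be tested, starts at 59798675 and 59799302 on chromosome 11. The first held 0, 2, 0 and 0 counts in WT and 16, 4, 8 and 16 in Flcn KO. The second held 0, 0, 2 and 0 counts in WT and 2, 9, 18 and 21 in Flcn KO. These counts lie mostly in the Flcn KO libraries, but without the deleted exons no Flcn peak checks the genotype.

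Src family kinases are membrane-anchored tyrosine kinases that start signalling from antigen and Fc receptors. Each is held inactive by phosphorylation of a tyrosine in its tail, which the kinase Csk adds and the phosphatase CD45, encoded by Ptprc, removes. In T cells, Lck binds the CD4 and CD8 coreceptors and phosphorylates the CD3 and zeta chains, with Fyn in an overlapping role. Lyn, Blk and Fgr are best known in B cells and myeloid cells, where Lyn can also phosphorylate inhibitory receptors, and Src and Yes1 are expressed in many tissues. Lck has a proximal promoter, used mainly in thymocytes, and a distal promoter that is also used in mature T cells.

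RefSeq start windows (250 bases before to 50 after a gene start, GRCm38.p6, the assembly behind mm10) were matched for 5 of the 7 genes, 6 windows in all. Lyn and Blk had no window, so nothing below on start sequences covers them. A member peak overlapped 5 of these 6 windows, and the Fgr window had none. The windows of Lck and Fyn, the T cell members, are printed with that of Src, a start with few counts, so that accessible starts and a weak one can be compared. They are 5′ to 3′ on the strand of the gene, and capitals mark GGAAGT, a core site of ETS factors, searched on both strands.

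Lck distal start, chr4:129573592-129573891, minus strand: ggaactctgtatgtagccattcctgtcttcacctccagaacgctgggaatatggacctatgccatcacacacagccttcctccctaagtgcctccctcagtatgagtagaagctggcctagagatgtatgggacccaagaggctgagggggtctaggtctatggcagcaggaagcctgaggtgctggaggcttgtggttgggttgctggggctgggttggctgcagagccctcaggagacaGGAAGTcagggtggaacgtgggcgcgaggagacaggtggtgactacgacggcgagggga
Lck proximal start, chr4:129558323-129558622, minus strand: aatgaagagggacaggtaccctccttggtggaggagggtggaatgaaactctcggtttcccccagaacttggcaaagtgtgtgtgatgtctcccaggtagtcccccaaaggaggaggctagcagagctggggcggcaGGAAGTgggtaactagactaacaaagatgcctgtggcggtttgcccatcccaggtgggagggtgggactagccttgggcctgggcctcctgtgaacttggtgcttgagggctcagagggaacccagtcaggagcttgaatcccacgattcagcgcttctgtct
Fyn start, chr10:39369549-39369848, plus strand: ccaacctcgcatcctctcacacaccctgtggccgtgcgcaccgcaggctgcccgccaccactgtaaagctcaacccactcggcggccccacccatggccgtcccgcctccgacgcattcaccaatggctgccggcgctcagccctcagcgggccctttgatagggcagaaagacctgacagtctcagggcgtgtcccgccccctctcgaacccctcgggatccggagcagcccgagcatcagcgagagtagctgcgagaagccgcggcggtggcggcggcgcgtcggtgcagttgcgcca
Src start, chr2:157424043-157424342, plus strand: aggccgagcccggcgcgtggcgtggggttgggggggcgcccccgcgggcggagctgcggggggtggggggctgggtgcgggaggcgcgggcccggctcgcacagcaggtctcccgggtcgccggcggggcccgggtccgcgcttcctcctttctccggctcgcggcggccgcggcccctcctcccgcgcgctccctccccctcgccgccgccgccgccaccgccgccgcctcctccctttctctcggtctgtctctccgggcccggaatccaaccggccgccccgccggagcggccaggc

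GGAAGT occurred once in each Lck window and in the Fgr window, and in 23.8% of all 32851 RefSeq windows of 300 bases. The core of the CLEAR element bound by TFEB and TFE3, CACGTG, was in 0 of the 6 member windows and in 7.15% of all windows. The AP-1 site TGANTCA, the forkhead site TGTTTAC and the TATA box TATAAA were also in 0 of 6, against 7.81%, 3.65% and 13.6% of all windows. With only 6 windows, 0 matches cannot be told from shares of this size, and nothing is read from them. The RUNX site TGTGGT was in 2 of 6 (distal Lck and Yes1) against 16.8%, and the GC box GGGCGG in 4 of 6 (proximal Lck, Fyn, Yes1 and Src) against 35.7%. A match is only a run of letters in the window. The windows also differ in base composition: GC content was 58.3% and 57.3% at the distal and proximal Lck starts, 62.7% at Fgr, 69.0% at Fyn, 77.0% at Yes1 and 82.3% at Src, beside a median of 52.7% over all windows. The Src window is GC-rich with 47 CpG pairs, and its peak had 1.95 CPM over the 8 libraries, while the Fyn start, with 31 CpG pairs, had 106 CPM.

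In Flcn KO, 1 of the 55 tested member peaks was called lower and 0 were called higher. Over all tested peaks, 2.37% were called in either direction and 1.02% were called lower, so 1 of 55 is close to the background, and nothing is read from the count. The called peak is the one near Lyn on which the family was selected. The log2 fold change (Flcn KO minus WT) was above 0 at 27 and below 0 at 28 tested member peaks, with a median of −0.03 beside 0.00 over all tested peaks. It stayed within 0.5 of 0 at 39 of the 55 (70.9%), beside 80.3% of all tested peaks. At 5 of the 55 every library of 1 group lay beyond every library of the other, 3 times upward and 2 times downward in Flcn KO. That is 9.09% beside 7.59% of all tested peaks. These 5 were 1 peak of Lyn, 2 of Lck, 1 of Fyn and 1 of Blk. The 2 peaks that were not tested, 1 of Src and 1 of Fgr, had too few counts for the filter.

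**Figure D1:**
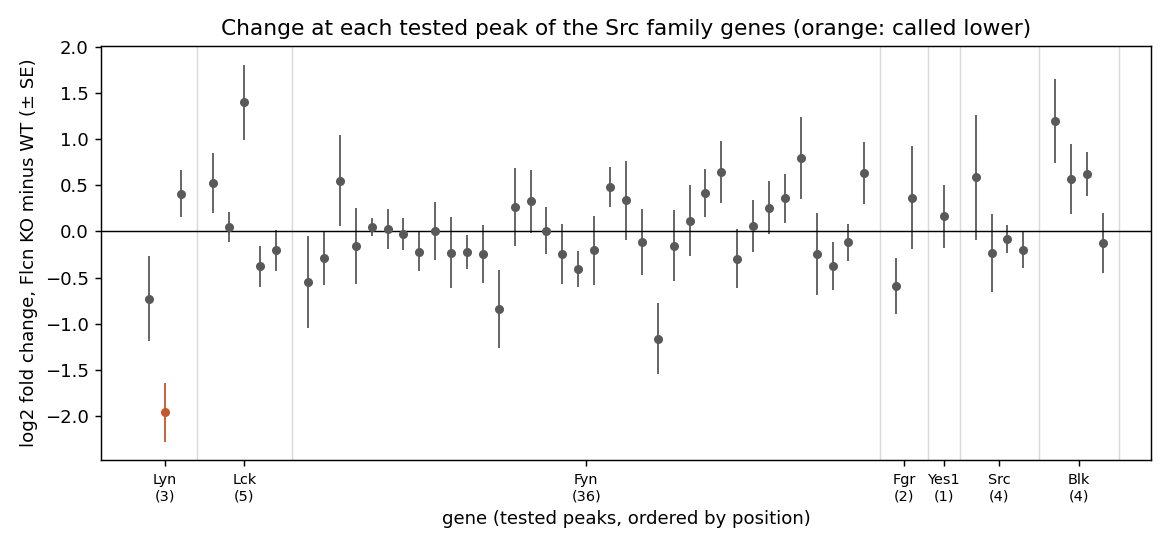
Log2 fold change (Flcn KO minus WT, y axis) with its standard error at each of the 55 tested peaks, grouped by gene along the x axis and ordered by position within a gene. The orange point is the called Lyn peak at −1.96, and the next farthest from 0 is a Lck peak at 1.40 that was not called.

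The Lyn peak (log2 fold change −1.96, SE 0.32) was the sole member inside the threshold, and not close to it. The nearest members outside it were an internal Lck peak starting at 129565171 (1.40, SE 0.41), an internal Fyn peak starting at 39469467 (−1.17, SE 0.38) and a Blk peak starting at 63381883 (0.63, SE 0.24).

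Lyn has 3 assigned peaks, and none of them lies inside its span (chromosome 4, 3678068 to 3791612). The called peak, at 3659923 to 3660332, is 17.7 kb from the end of Lyn with the lower coordinate, and the next nearest gene, Tgs1, is 43.3 kb away on the other side. Raw counts in replicates 1 to 4 were 72, 102, 34 and 40 in WT and 18, 18, 12 and 8 in Flcn KO. After scaling, the WT libraries had 14.9, 22.8, 8.67 and 9.84 CPM and the Flcn KO libraries 3.52, 4.81, 2.98 and 3.05 CPM. Every WT library was above every Flcn KO library, and WT replicate 2 was the highest. The mean fell from 14.1 ± 6.41 CPM to 3.59 ± 0.847 CPM (SD, n = 4), a 3.89-fold decrease. The peak was called in all 14 alternative fits, with log2 fold changes from −2.13 to −1.63, the smallest change being that without WT replicate 2. Position does not show which gene the peak regulates. With gene assignment limited to 10 kb, the family holds 0 called peaks.

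The other Lyn peaks were not called. The one starting at 3648910, 28.7 kb from the same end, had 2.91, 5.35, 3.57 and 4.43 in WT and 4.69, 1.07, 1.99 and 1.52 CPM in Flcn KO (log2 fold change −0.73, SE 0.46). Its groups overlapped, with Flcn KO replicate 1 among the WT values. The third, starting at 3810263 and 18.7 kb beyond the opposite end, had 5.81, 11.2, 9.18 and 9.84 in WT and 12.9, 9.62, 12.9 and 12.2 CPM in Flcn KO (0.41, SE 0.25), and its groups overlapped too. Within 250 kb on either side of the called peak, 8 other peaks were tested and 0 were called. With 2.37% of all tested peaks called, nothing is read from that 0. Their log2 fold changes ran from −1.17 to 0.57 with a median of 0.08. The lowest of these, assigned to Tgs1 and 12.9 kb away, had means of 4.51 ± 1.56 in WT and 1.89 ± 1.19 CPM in Flcn KO. This peak and the Lyn peak starting at 3648910, 11.0 kb away, were the nearest to the called peak, and both had values below 0. The peaks farther away ran from −0.02 to 0.57.

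**Figure D2:**
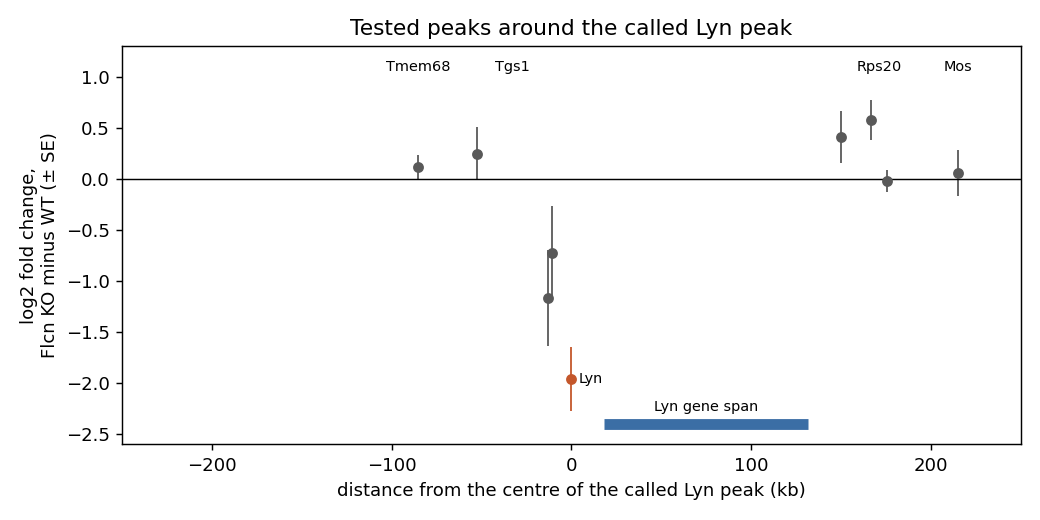
Log2 fold change (Flcn KO minus WT, y axis) with its standard error at the 9 tested peaks within 250 kb of the called Lyn peak, by distance from its centre in kb (x axis); names along the top mark other genes with assigned peaks and the blue bar the Lyn span. The called peak (orange) is at −1.96, and the 8 others run from −1.17 to 0.57.

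Lyn is a gene of B cells and myeloid cells, so the markers of those cells were measured beside it. Of 8 B cell markers, 5 had assigned peaks, and the defining genes Ms4a1 and Cd79b were among those with none. The summed level of the B cell markers was 50.7 to 72.7 CPM in the WT and 46.8 to 56.9 CPM in the Flcn KO libraries. Of their 8 tested peaks 0 were called higher and 1 lower, at Cd22, which is also among the substrates and partners below. Of 8 myeloid markers, 3 had assigned peaks, with Csf1r, Lyz2, Adgre1, Cd68 and Fcgr1 at none, and sums of 51.8 to 68.6 in WT and 41.4 to 53.2 CPM in Flcn KO. None of the 8 tested myeloid peaks was called (0 in either direction). Per kb of peak, the B cell markers had 14.5 CPM, the myeloid markers 15.4 CPM and the Treg and T cell markers 45.7 CPM. By the same measure CD8 T cell markers had 18.1 CPM and NK cell markers 46.2 CPM, as high as the Treg and T cell markers. The part of such cells in the Lyn result was not tested, and in these bulk libraries fewer cells of a type and less accessibility per cell cannot be told apart. Other cell types a sort could hold were measured too. CD8 T cell markers summed to 26.1 to 37.8 in WT and 21.9 to 47.2 CPM in Flcn KO. NK cell markers summed to 252 to 281 in WT and 265 to 338 CPM in Flcn KO. Most of the NK cell sum lay at Klrb1c, with means of 223 in WT and 266 CPM in Flcn KO. The means were 26.4 and 23.2 CPM at Eomes, 12.05 and 11.9 CPM at Nkg7, and 3.77 and 3.37 CPM at Ncr1. The NK cell levels given here, per kb and summed, therefore mostly describe Klrb1c. Of the 4 tested CD8 T cell marker peaks 0 were called. Of the 14 tested NK cell marker peaks 1 was called higher and 1 lower, both assigned to Klrb1c, the higher one 17.3 kb from it. Both calls ended without WT replicate 2, Flcn KO replicate 2 or Flcn KO replicate 4. The higher call also ended without WT replicate 1 or 3, and the lower call by limma-voom.

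By the root-mean-square difference of log2 CPM over the 8 libraries, the 3 peaks of other genes most like the called Lyn peak, out of 43189, were near Ptprc, Ccdc6 and Zfp608. Their differences from it were 0.29, 0.32 and 0.36 log2 units, beside a median of 1.49 over all peaks compared. The Ptprc peak, 10.2 kb from the gene, had 12.04, 20.1, 11.2 and 12.8 in WT and 4.69, 5.34, 2.49 and 3.81 CPM in Flcn KO. The Ccdc6 peak had means of 13.8 ± 3.30 and 4.25 ± 0.473 CPM, and the Zfp608 peak 13.9 ± 6.01 and 3.80 ± 1.81 CPM (SD, n = 4). In all 3, as at Lyn, WT replicate 2 was the highest library, which the choice by likeness over the same libraries favours. All 3 were called lower in every one of the 14 alternative fits, but they were found by likeness to a called peak, so their calls add nothing to that of Lyn.

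Lck, which couples the CD4 coreceptor to the T cell receptor, had 5 tested peaks and 0 calls (chromosome 4, 129548344 to 129573641). The proximal start peak, at 129558267 to 129558979, had 34.9, 27.7, 25.0 and 30.0 in WT and 26.6, 35.8, 32.8 and 26.7 CPM in Flcn KO. The distal start peak, at 129573516 to 129573830, had 16.2, 15.2, 10.7 and 16.7 in WT and 13.3, 14.4, 12.4 and 10.7 CPM in Flcn KO. At both starts the groups overlapped, and the log2 fold changes were 0.05 (SE 0.16) and −0.20 (SE 0.22). Per kb of peak the proximal and distal starts were at 42.0 and 43.5 CPM over the 8 libraries. Both starts whose sequences are printed above were thus open at similar density.

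An internal Lck peak between these starts, at 129565171 to 129565523, came nearest to a call among all the uncalled member peaks. It had 2.49, 4.91, 1.53 and 2.46 in WT and 5.08, 5.88, 5.47 and 15.2 CPM in Flcn KO. No Flcn KO library was as low as any WT library, and Flcn KO replicate 4 stood far above the other 3. The log2 fold change was 1.40 (SE 0.41), and 0.93 without Flcn KO replicate 4. Without WT replicate 2 or Flcn KO replicate 1 the peak was called higher (1.79 and 1.57). A further internal peak, starting at 129570025, had means of 20.3 ± 3.61 in WT and 15.3 ± 5.89 CPM in Flcn KO (−0.38, SE 0.22). A weak peak 310 bp beyond the lower-coordinate end of Lck had 4.46 to 4.67 in WT and 5.08 to 9.14 CPM in Flcn KO (0.53, SE 0.33), without overlap and without a call.

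**Figure D3:**
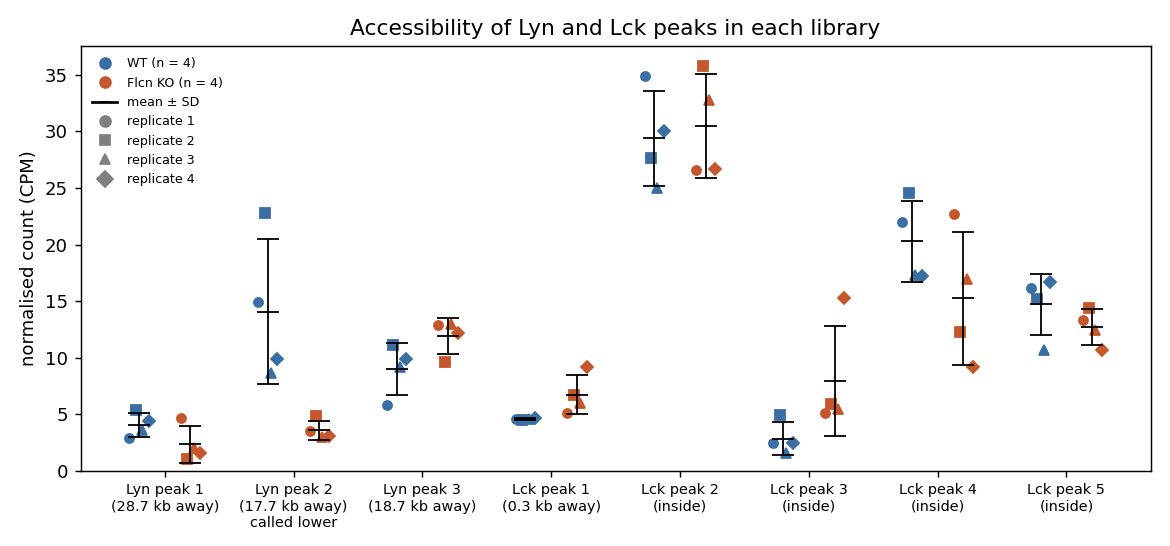
Normalised counts in CPM (y axis) of the 3 Lyn and 5 Lck peaks, in order of position (x axis), with each library as a point and the mean ± SD of 4 libraries in black. At the second Lyn peak the WT libraries lie between 8.67 and 22.8 CPM and the Flcn KO libraries between 2.98 and 4.81 CPM, while the WT and Flcn KO libraries overlap at the peaks over the Lck starts, those beginning at 129558267 and 129573516.

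Fyn, the other main Src family kinase of T cells, accounted for 36 of the 57 member peaks, 32 of them in its span of 196 kb (chromosome 10, 39369743 to 39565381). The start peak, at 39369458 to 39369923, was the most accessible of the family at 228 CPM per kb, the 98.7th percentile of all peaks. It had 107, 106, 108 and 96.9 in WT and 95.4, 110, 111 and 117 CPM in Flcn KO. The groups overlapped, and the log2 fold change was 0.05 (SE 0.10), the smallest SE among the members. The window of this peak also overlaps the start of the predicted gene Gm31616. The other 35 Fyn peaks ranged from 2.58 to 29.4 CPM, and the start peak held 25.5% of the summed Fyn level.

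None of the 36 Fyn peaks was called (0 higher, 0 lower). Their log2 fold changes ran from −1.17 to 0.80, with 17 above and 19 below 0 and 29 within 0.5 of 0. The lowest value belonged to the internal peak at 39469467 to 39469791, with 6.43, 10.3, 4.59 and 4.92 in WT and 4.50, 2.67, 2.49 and 1.52 CPM in Flcn KO. These groups did not overlap, though WT replicate 3 and Flcn KO replicate 1 nearly met. It was called lower only without Flcn KO replicate 1 among the 13 alternatives in which it was tested. An internal peak starting at 39455861 had means of 11.97 ± 0.831 in WT and 16.8 ± 3.44 CPM in Flcn KO (0.49, SE 0.22). Another, starting at 39434851, had means of 21.8 ± 1.96 and 16.3 ± 4.10 CPM (−0.40, SE 0.20), so within Fyn the uncalled differences pointed both ways. Among the member peaks, 10 pairs of neighbours lie less than 1000 bp apart, so neighbouring peaks may cover parts of 1 accessible stretch.

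**Figure D4:**
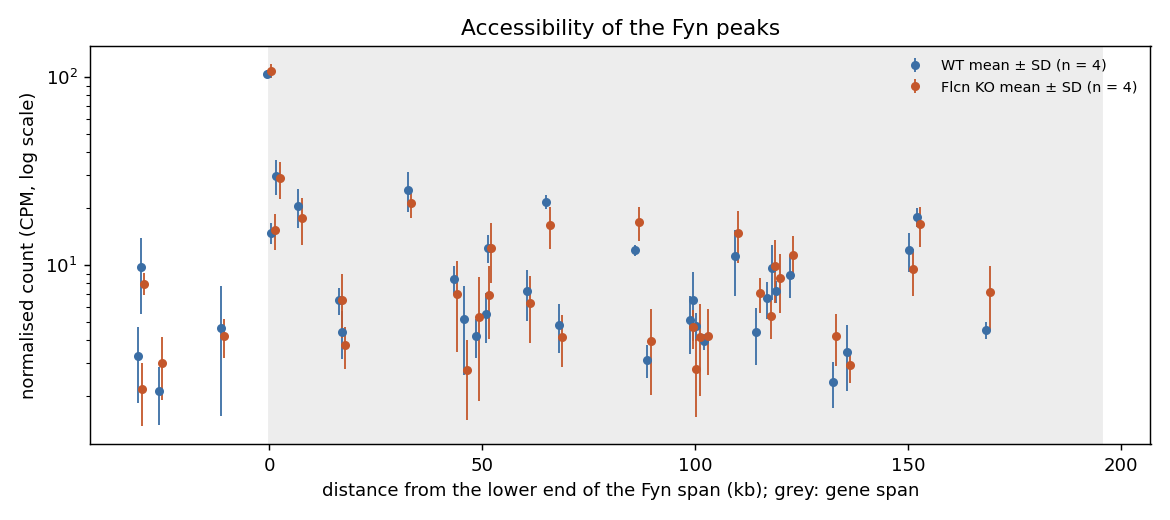
Mean normalised count in CPM (y axis, log scale) ± SD of 4 libraries for WT and Flcn KO at the 36 Fyn peaks, by distance in kb from the lower-coordinate end of the gene (x axis; the span is grey). The start peak stands at 104 in WT and 108 CPM in Flcn KO, above the 35 other peaks.

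Blk, a kinase of the B cell lineage, had 4 tested peaks touching its span (chromosome 14, 63372837 to 63417187) and 0 calls. Its most accessible peak, at 63381883 to 63382211, had 13.7, 13.8, 8.16 and 7.87 in WT and 19.2, 17.1, 11.9 and 19.8 CPM in Flcn KO (log2 fold change 0.63, SE 0.24). Only Flcn KO replicate 3 was within the WT range. A peak at 63372551 to 63372849, overlapping the lower-coordinate end of the gene, had 1.66, 2.23, 1.02 and 2.95 in WT and 3.13, 4.27, 5.97 and 4.95 CPM in Flcn KO (1.19, SE 0.45). Its groups did not overlap, by a narrow gap between WT replicate 4 and Flcn KO replicate 1. The remaining Blk peaks, starting at 63377336 and 63383350, gave log2 fold changes of 0.57 (SE 0.38) and −0.13 (SE 0.32).

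Fgr, a myeloid member, had 3 peaks of which 2 were tested, with 0 calls (chromosome 4, 132974095 to 133001893). The strongest, at 132972132 to 132972485 and 1610 bp outside the lower-coordinate end of the gene, had 12.5, 12.05, 10.7 and 4.43 in WT and 7.04, 4.27, 7.46 and 7.62 CPM in Flcn KO (−0.60, SE 0.30). WT replicate 4 lay among the Flcn KO values, so the groups overlapped. The internal Fgr peaks had mean levels of 2.63 and 2.28 CPM over the 8 libraries.

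Of the broadly expressed members, Src had 4 tested peaks and Yes1 had 1, with 0 calls in each. The Src start peak, at 157424073 to 157424340 of chromosome 2, had 3.32, 2.23, 0.510 and 2.95 in WT and 2.74, 1.07, 1.99 and 0.762 CPM in Flcn KO, and was not tested. Most of the Src signal came from an internal peak at 157447155 to 157447800, with 44.4, 43.3, 39.8 and 37.4 in WT and 41.8, 38.2, 48.2 and 25.9 CPM in Flcn KO (−0.08, SE 0.15). This peak held 61.0% of the summed Src level at 61.7 CPM per kb, beside 7.26 CPM per kb at the start. A second internal Src peak, starting at 157457426, had means of 19.7 ± 0.551 and 17.1 ± 2.81 CPM. The single Yes1 peak covers its start (32610956 to 32611315 of chromosome 5) and had 10.4, 9.15, 8.16 and 2.95 in WT and 14.9, 8.02, 5.97 and 4.57 CPM in Flcn KO (0.16, SE 0.34). The lowest Yes1 value was in WT replicate 4 and the highest in Flcn KO replicate 1.

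The counts of all peaks of a gene were then summed and fitted for all 13488 genes with enough counts. The CPM of these sums use library totals over the peaks assigned to such genes, so their scale differs slightly from that of the peaks. The single Yes1 peak, for example, had 8.01 CPM as a peak and 8.47 CPM as a sum over the 8 libraries. None of the 7 members was called (0 higher, 0 lower), beside 1.84% of all genes tested. Ordered by summed level per kb of peak, the genes were Src (36.8 CPM), Lck (36.1 CPM), Fyn (34.9 CPM), Yes1 (23.5 CPM), Blk (23.5 CPM), Lyn (20.7 CPM) and Fgr (17.7 CPM). The ranges of the 8 libraries overlap for each pair of neighbours in this order, and the largest step lies between Fyn and Yes1. The Fyn sum was 440 ± 47.8 in WT and 441 ± 29.7 CPM in Flcn KO (log2 fold change 0.00, SE 0.08), and the Lck sum 75.5 ± 10.0 and 77.6 ± 1.97 CPM (0.04, SE 0.10). The Src sum was 71.9 ± 6.86 and 66.4 ± 13.7 CPM (−0.10, SE 0.12). These 3 genes had the smallest differences and the smallest standard errors.

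The Lyn sum was 24.8, 42.1, 22.5 and 25.0 in WT and 22.5, 16.1, 19.4 and 17.7 CPM in Flcn KO (log2 fold change −0.58, SE 0.19). The groups overlapped at WT replicate 3 and Flcn KO replicate 1, and WT replicate 2 stood far above the rest. Without WT replicate 2 the value was −0.33, and without Flcn KO replicate 1 it was −0.69 and the sum was called lower. The Blk sum was 30.0, 33.5, 18.2 and 23.9 in WT and 49.5, 32.7, 29.1 and 36.7 CPM in Flcn KO (0.49, SE 0.18), with overlap between the groups. It was 0.30 without Flcn KO replicate 1, the highest library. For the Fgr and Yes1 sums the log2 fold changes were −0.31 (SE 0.25) and 0.18 (SE 0.36), the latter being −0.29 without Flcn KO replicate 1.

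**Figure D5:**
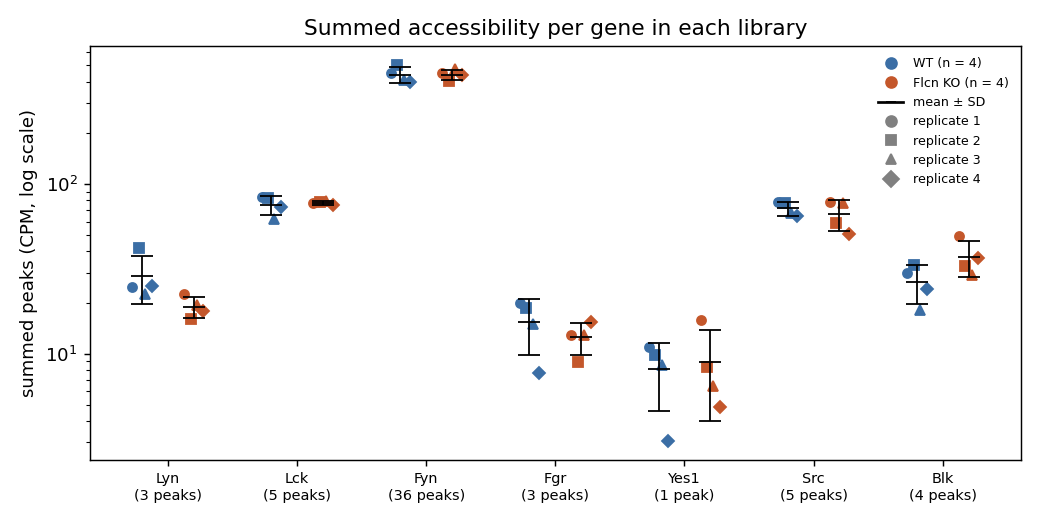
Summed peaks per gene in CPM (y axis, log scale) for the 7 genes (x axis), with each library as a point and the mean ± SD of 4 libraries in black. Fyn is highest at 440 CPM in WT, the Lyn sum of WT replicate 2 (42.1 CPM) stands above the other Lyn values, and the groups of every gene overlap.

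Genes that act with these kinases were taken from 3 lists, which were also drawn up with earlier results known. Of 61 genes 57 had an assigned peak, and of their 401 tested peaks 10 were called higher, 5 lower and 386 not, which is 3.74% beside 2.37% of all tested peaks. The median log2 fold change was 0.03, with 212 peaks above 0. Among upstream regulators, 1 of 162 peaks was called higher and 3 lower. Among substrates and partners 8 of 223 were called higher and 2 lower, and among relatives of the family 1 of 16 was called higher and 0 lower.

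Among the regulators, the Ptprc peak given above lay near the gene of CD45, the phosphatase that activates the kinases, and changed by −1.77 log2 units (SE 0.29). A peak inside Ptpn22, which encodes a phosphatase that dephosphorylates Lck, had 12.5, 18.3, 9.69 and 13.8 in WT and 6.26, 8.02, 3.98 and 4.57 CPM in Flcn KO (−1.23, SE 0.28). WT replicate 2 was the highest library there too, and without it the peak was not called (−1.06). A peak inside Pag1, whose product anchors Csk at the membrane, rose from 12.5, 19.6, 17.3 and 10.8 CPM to 31.5, 26.2, 25.4 and 28.2 CPM (0.89, SE 0.19). In each of the Ptprc, Ptpn22 and Pag1 peaks the groups did not overlap.

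Among the substrates and partners, 2 peaks inside Tec, a kinase gene of the Tec family, rose. The first had 2.08, 6.69, 7.65 and 4.92 in WT and 18.0, 19.8, 30.6 and 19.4 CPM in Flcn KO (log2 fold change 2.05, SE 0.28), and the second changed by 0.98 (SE 0.20). Bank1, whose product is a B cell scaffold that binds Lyn, held 4 of the 8 higher peaks, by 1.60, 1.48, 0.96 and 0.73 log2 units. The Bank1 peak at 136072005 of chromosome 3 had 8.30, 11.6, 19.4 and 9.35 in WT and 35.2, 31.0, 30.3 and 38.5 CPM in Flcn KO (1.48, SE 0.21), without overlap. Each of the other 3 Bank1 calls ended when any of 3 or 4 single libraries was left out, and the one of 1.60 also by limma-voom. A peak inside Ubash3b, a gene for a phosphatase that restrains receptor signalling, fell from 9.85 ± 0.833 to 3.69 ± 1.26 CPM (−1.37, SE 0.31). A peak 7.2 kb from Cd22, an inhibitory receptor of B cells that Lyn phosphorylates, fell from 8.63 ± 1.92 to 3.57 ± 1.16 CPM (−1.25, SE 0.33), a call that ended by limma-voom and when any of 5 single libraries was left out. Among the relatives, a peak 37.3 kb from Abl2 rose from 13.2 ± 5.84 to 27.5 ± 4.03 CPM (1.06, SE 0.23, SD over n = 4).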

How the data were processed

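The authors deposited raw counts per peak and library over 1 shared set of 57199 peaks in mm10 coordinates, with no normalization. The submitters' processing notes name bedtools 2.25.0, MACS2 2.1.1, SAMtools 1.9, Picard 2.9.4, BWA 0.7.16 and Trimmomatic 0.36. How each was used, whether duplicates were removed or reads shifted, and whether peaks came from pooled libraries is not stated there. Between 88.7% and 92.7% of a library's values were even, so both ends of most pairs appear to be counted. Starts, 0-based as deposited, are given 1-based.

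Each library was grouped by its title. Peaks were assigned to the nearest of 21883 protein-coding spans (RefSeq, GRCm38.p6) within 50 kb; the gene table gives no strand or exons, so exon or intron is not stated. The whole table was fitted with edgeR 4.0.16 (R 4.3.3): filterByExpr (minimum count 10), TMM, robust quasi-likelihood, genotype only. Calls used an adjusted p below 0.05. SE came from the change and its F statistic. Gene sums were fitted likewise. Alternatives used DESeq2 1.42.0, limma 3.58.1, other filters and scaling, a replicate block and leaving out each library. The procedure was tested on simulated data with changes placed only at features of higher mean count, so weak peaks were not covered. The members and lists were chosen with earlier results of these data known. Named peaks are called member peaks, each member's most accessible and start (or nearest-end) peak, peaks near the threshold, and up to 12 called peaks of the pathway lists by lowest p, and the 3 peaks most like the Lyn peak; other peaks given with values, the Flcn peaks among them, were chosen after their values were seen.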

Additional observations from a re-analysis of the deposited data

Results flagged for a closer look

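In 8 of 174 sets of 4 libraries that were screened, 1 library stood apart from the other 3 by Dixon's criterion; chance gives about 1 in 20. At the internal Lck peak starting at 129565171, Flcn KO replicate 4 had 15.2 CPM and the other Flcn KO libraries 5.08 to 5.88 CPM. At the Fyn peak starting at 39376664, Flcn KO replicate 2 had 25.1 CPM and the others 14.5 to 16.002 CPM. At the Fyn peak starting at 39386265, Flcn KO replicate 2 had 10.2 CPM and the others 5.08 to 5.47 CPM. In the Fyn peak starting at 39430393, Flcn KO replicate 4 had 9.91 CPM and the others 4.81 to 5.47 CPM. In the Blk peak starting at 63383350, Flcn KO replicate 1 had 13.7 CPM and the others 4.57 to 5.47 CPM. For the summed Lyn peaks, WT replicate 2 had 42.1 CPM and the other WT libraries 22.5 to 25.0 CPM. At the Tec peak starting at 72802824, Flcn KO replicate 3 had 30.6 CPM and the others 18.0 to 19.8 CPM. At the Flcn peak starting at 59809585, Flcn KO replicate 3 had 2.98 CPM and the others 6.86 to 7.48 CPM.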

How the results depend on the processing

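The Lyn peak starting at 3659923 was called lower in all 14 alternative fits. The number of called member peaks stayed at 1 with DESeq2 size factors, either other filter, the DESeq2 Wald test and limma-voom, and ranged from 1 to 3 when 1 library was left out (3 without Flcn KO replicate 1, 2 without WT replicate 2). It was 0 with assignment within 10 kb and 0 with peaks inside the gene span only, because the Lyn peak is then not a member. With the replicate block it was 2, the internal Lck peak being added. Same-numbered libraries had correlations of their deviations of 0.08, −0.05, 0.06 and 0.05 for replicates 1 to 4. Those of unlike numbers ran from −0.15 to 0.17. The labels do not say whether the numbers mark a shared batch, and these correlations cannot settle it. Calls over all peaks went from 1133 to 1375 under the block. The number of called member genes by summed peaks was 0, and ranged from 0 to 1 when 1 library was left out (Lyn without Flcn KO replicate 1, where calls over all peaks rose from 1133 to 1797; without WT replicate 2 they were 665). Of 1182 values of 86 peaks and sums under these alternatives, 0 called values changed sign, 42 lost a call, all at Ptpn22, Bank1, Cd22, Ctla4, Ikzf2, Il2ra and Klrb1c, and 5 gained one, at the internal Lck and Fyn peaks and the Lyn sum; the cause was not tested. The sign of uncalled changes near 0 switched in 51 values. Depth limits the weak peaks: the called Lyn peak rests on 8 to 18 counts in each Flcn KO library. Its counts are even in every library, so if both ends of each pair were counted, it rests on fewer fragments than counts.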
